A study of Mus musculus with 3 samples.

Results

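Genes of the complement system were looked up on bead arrays of mouse sinonasal mucosa, which lines the nose and its sinuses, by their gene symbols. The 9 symbols were C1qa, C1qb, C1qc, C2, C3, C4b, Cfb, Cfd and Cfi. Of these 9 genes, 6 had a probe that carried their name, out of 17349 named genes in all: the C1q chain genes C1qa, C1qb and C1qc, and C2, Cfb and Cfi, with 1 probe each. C3, C4b and Cfd had no probe under these symbols in the annotation used and were not analysed here. All 6 measured genes were detected on every array.

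The RNA came from C57BL/6 mice of 6 to 8 weeks of age in 3 groups. Control_WT was wild type without disease, ECRS_WT was wild type with eosinophilic chronic rhinosinusitis of allergic type, and ECRS_KO carried a knockout of CC10 and had the same disease. CC10, the product of Scgb1a1, is a secretoglobin of airway lining fluid. Equal amounts of total RNA of 5 mice were pooled for each group and read on 1 array, so 15 mice gave 3 arrays, mice were not measured singly, and no value below has a replicate error. The labels name neither the allergen nor the construct of the knockout.

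Complement is a cascade of plasma and tissue proteins that marks microbes and dying cells and attracts leukocytes. It starts by the classical pathway, when C1q binds antibody complexes, by the lectin pathway, when collectins or ficolins bind sugars, or by the alternative pathway, in which C3 turns over slowly without a trigger. All routes converge on enzymes that split C3, and regulators such as factor I break these enzymes down. Liver makes most of the plasma proteins, whereas macrophages and dendritic cells are the main source of C1q, and airway epithelium and fibroblasts make several components locally.

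The C1q chain genes lie side by side on chromosome 4 and stood higher in the pool labelled ECRS_WT than in the pool labelled ECRS_KO together, as given below, so the promoter windows at hand are shown first. Each window runs from 250 bases before to 50 bases after the annotated start of transcription, read 5′ to 3′ on the strand of the gene, from RefSeq on build GRCm38.p6. The window of C1qb is chr4:136886151-136886450 on the minus strand and that of C1qc is chr4:136892865-136893164 on the minus strand. Capitals mark matches to the motifs searched.
C1qb: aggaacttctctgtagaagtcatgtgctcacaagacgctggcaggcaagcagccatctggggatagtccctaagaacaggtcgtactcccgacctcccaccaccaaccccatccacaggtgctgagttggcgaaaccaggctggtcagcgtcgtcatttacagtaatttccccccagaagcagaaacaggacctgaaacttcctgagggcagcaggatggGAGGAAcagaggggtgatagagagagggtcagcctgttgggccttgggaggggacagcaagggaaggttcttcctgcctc
C1qc: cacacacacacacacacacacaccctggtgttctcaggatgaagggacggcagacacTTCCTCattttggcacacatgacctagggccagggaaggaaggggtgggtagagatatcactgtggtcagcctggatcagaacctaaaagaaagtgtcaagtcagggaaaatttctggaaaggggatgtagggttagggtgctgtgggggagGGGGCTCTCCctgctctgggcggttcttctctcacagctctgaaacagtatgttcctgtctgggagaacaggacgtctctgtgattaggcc

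Both windows held the core GAGGAA of PU.1, a transcription factor of myeloid cells. In the C1qb window it lay on the strand of the gene at bases 221 to 226, and in the C1qc window on the opposite strand at bases 58 to 63, where it is printed as its reverse complement. This core occurred on either strand in 28.1% of 32544 promoter windows of the same length. The C1qc window also held a match to the NF-kB site, searched as GGG, a purine, any 2 bases, 2 pyrimidines and CC, at bases 210 to 219, on the strand of the gene, which 8.49% of windows held. Neither window held the interferon-stimulated response element, searched as GAAA, any 2 bases and GAAA (3.45% of windows), a STAT site, searched as TTC, any 3 bases and GAA (8.33%), or CCAAT (37.4%), on either strand. The matches within each window did not overlap. A match describes letters in a window and is not a measured site of binding.

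The targeted gene was looked at first. Its signal was 3.32 in the pool labelled Control_WT, where it was not detected, 493 in the pool labelled ECRS_WT and 597 in the pool labelled ECRS_KO. The signal was thus absent from a wild-type pool and present in the knockout pool, and whether the single probe lies in the deleted part is not known here. Pools are therefore called by what they were labelled, and every direction given below depends on labels that Scgb1a1 went against. The arrays also differed in brightness, with mean signals between 295 and 465, and between 11428 and 12508 of 35226 probes were detected, at a detection p-value under 0.01. The tissue label was checked on markers: 6 of 6 nasal gland genes and 6 of 7 ciliated cell genes with a probe were detected on at least 1 array, as were 5 of 7 general epithelial genes and 10 of 10 olfactory neuron genes.

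The values are given first as deposited, as background-subtracted signals before normalization. C1qa, the A chain of C1q, had a signal of 544 in the pool labelled Control_WT, 790 in the pool labelled ECRS_WT and 434 in the pool labelled ECRS_KO. C1qb, the B chain, had signals of 951, 2449 and 976 in the same order. C1qc, the C chain, had signals of 535, 1798 and 842. All 3 chains were brightest in the pool labelled ECRS_WT, although the pool labelled ECRS_KO was the brightest over all probes. C2, the serine protease that joins C4b in the C3-splitting enzyme of the classical and lectin pathways, had signals of 3355, 4805 and 2128. Cfi, the serine protease factor I, which inactivates C3b and C4b, had signals of 218, 312 and 68.1. Both were dimmest in the pool labelled ECRS_KO. Cfb, the serine protease factor B of the alternative pathway, had signals of 37.0, 37.1 and 41.4, close to background on every array.

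After background correction and quantile normalization, levels on the log2 scale were compared between arrays. C1qa stood at 9.65, 9.69 and 8.39 in the pools labelled Control_WT, ECRS_WT and ECRS_KO, C1qb at 10.37, 11.32 and 9.55, and C1qc at 9.63, 10.87 and 9.33. C2 stood at 12.10, 12.26 and 10.70, Cfi at 8.46, 8.38 and 6.04, and Cfb at 6.37, 5.81 and 5.59. The lowest levels among detected probes were 5.19, 5.06 and 5.00, so Cfb had little room below it. For every one of these genes the lowest of the 3 levels was that in the pool labelled ECRS_KO, except that scaling to a common median put C1qc lowest in the pool labelled Control_WT.

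**Figure D1:**
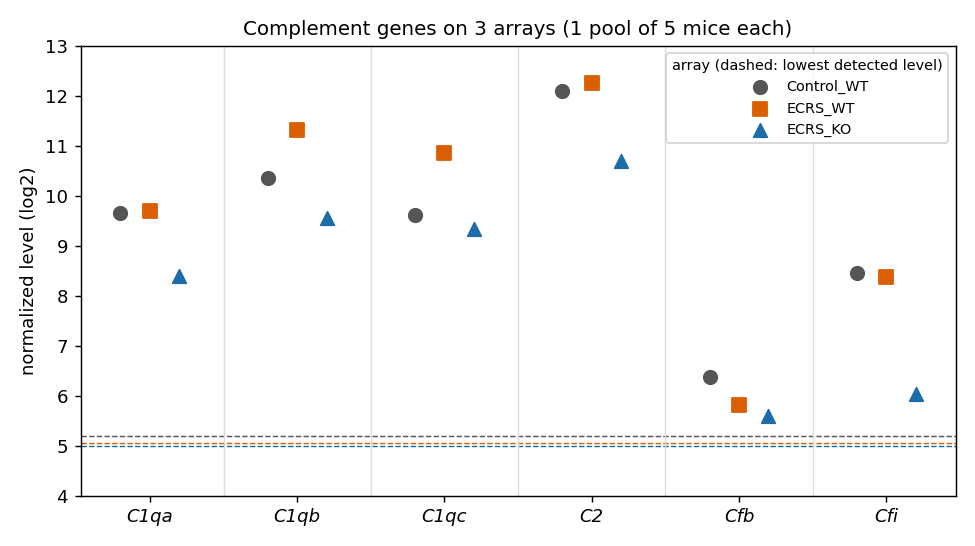
Normalized log2 levels of the 6 complement genes on the 3 arrays, 1 point per array and no error bars because each group is 1 pool. Dashed lines give the lowest level among detected probes of each array (5.19, 5.06 and 5.00); the pool labelled ECRS_KO (triangles) has the lowest point for each gene, and Cfb lies nearest the dashed lines.

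The first comparison, ECRS_WT with Control_WT, concerned the disease in wild-type mice. The C1q chains did not stand at equal distances. C1qc was 2.36-fold higher in the pool labelled ECRS_WT (1.24 on the log2 scale) and C1qb was 1.94-fold higher (0.95), whereas C1qa differed by 0.05. The mean difference over the 3 chains was 0.75, and the chains spanned a range of 1.19. In comparison, different probes of the same gene differed with a pooled SD of 0.50 over 370 genes in this comparison, a measure of disagreement between probes and not between mice.

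C2 differed by 0.16, Cfi by -0.08 and Cfb by -0.56 on the log2 scale. All 3 were within 2-fold. The small differences of C1qa and C2 turned negative when scaled on probes detected on every array (-0.03 and -0.04), and that of Cfi was positive (0.19) with scaling to a common median.

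A gene counted as apart if it differed by at least 2-fold and was detected in the brighter pool. By this rule 1 of 6 complement genes was higher, C1qc, and none lower. Over all 8766 genes detected on either array, 3.76% were higher and 1.4% lower. The median difference of the 6 genes was 0.10, beside -0.09 over all measured genes. C1qb lay just under 2-fold, and it passed with limma's own background estimate, an alternative that infers much noisier negative controls (1.24), and with scaling to a common median (1.06).

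The second comparison, ECRS_KO with ECRS_WT, concerned the knockout of CC10 under disease. On the pool labelled ECRS_KO, 5 of 6 complement genes were at least 2-fold lower and none was higher. They were the 3 chains of C1q, the protease gene C2 and the regulator gene Cfi. Cfb was 1.17-fold lower. Over all 8919 genes measured in this comparison, 2.35% were lower and 4.66% higher. The median difference of the 6 genes was -1.55, beside -0.04 over all measured genes.

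Cfi showed the largest difference of the 6, 5.07-fold lower (-2.34 on the log2 scale), and only 6 of the 8919 measured genes had a more negative value. With limma's own background estimate its difference was -0.45, below 2-fold. With the authors' normalized values it was -1.45. C1qb was 3.41-fold lower (-1.77), with 26 genes further down. C2 was 2.96-fold lower (-1.56), with 42 genes further down. C1qc was 2.90-fold lower (-1.53), and C1qa was 2.47-fold lower (-1.30), with 83 genes further down. The 3 chains thus lay closer together here than in the comparison of ECRS_WT with Control_WT, over a range of 0.47 on the log2 scale, with a mean of -1.53. The pooled SD between probes of the same gene was 0.29 over 491 genes. The difference between these ranges was not tested.

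Both comparisons use the pool labelled ECRS_WT, so a high value there raises the first difference and lowers the second. In a pool of tissue RNA, fewer cells of a type and less RNA per cell cannot be told apart.

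**Figure D2:**
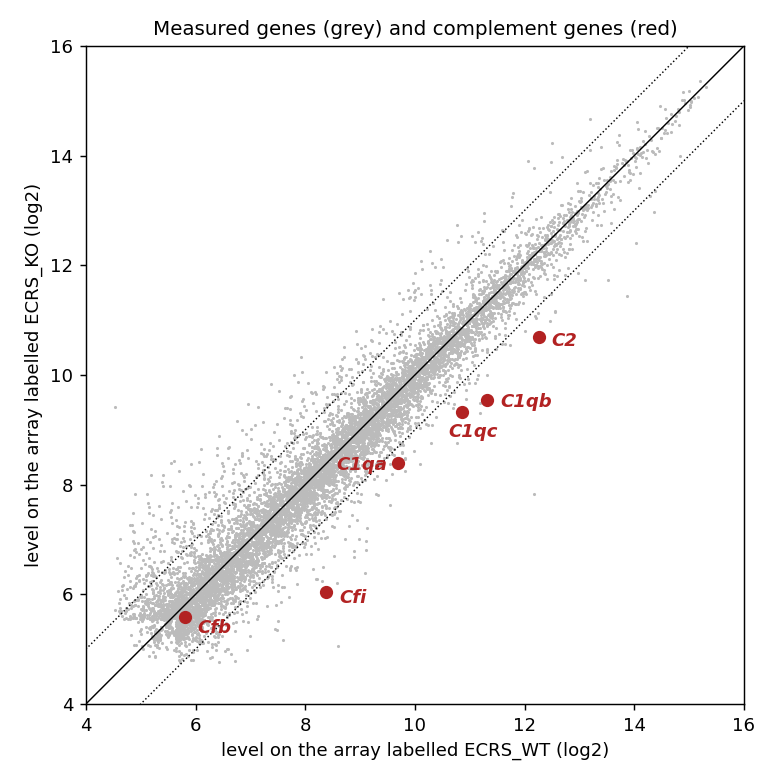
Level in the pool labelled ECRS_KO (vertical, log2) against level in the pool labelled ECRS_WT (horizontal, log2) for the 8919 genes measured in that comparison (grey) and the 6 complement genes (red). The solid line marks equal levels and the dotted lines 2-fold; 5 of the 6 red points lie below the lower dotted line, Cfi farthest, and Cfb lies inside.

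The comparison of ECRS_KO with Control_WT differs in both disease and genotype, and it shares an array with each comparison above. Here 3 of 6 complement genes were at least 2-fold lower in the pool labelled ECRS_KO and none was higher, beside 5.66% lower and 6.91% higher of 9085 measured genes. Cfi was 5.37-fold lower (-2.42), C2 was 2.65-fold lower (-1.40) and C1qa was 2.39-fold lower (-1.25). C1qb differed by -0.82, Cfb by -0.79 and C1qc by -0.29 on the log2 scale, each within 2-fold. C1qb passed 2-fold (-1.06) with limma's own background estimate. The value of C1qc was positive (0.09) with scaling to a common median. C1qa did not reach 2-fold under that scaling (-0.86) or with limma's own background estimate (-0.94), with which Cfi differed by -0.48. The median of the 6 genes was -1.03, beside -0.11 over all measured genes.

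The order of the arrays thus differed between genes. For C1qb and C1qc the pool labelled ECRS_WT stood above both others, with Control_WT within 2-fold of ECRS_KO, apart from C1qb with limma's own background estimate. For C1qa, C2 and Cfi the pools labelled Control_WT and ECRS_WT lay within 0.16 of each other on the log2 scale, and the pool labelled ECRS_KO lay more than 2-fold below both, apart from C1qa and Cfi under the alternatives named.

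**Figure D3:**
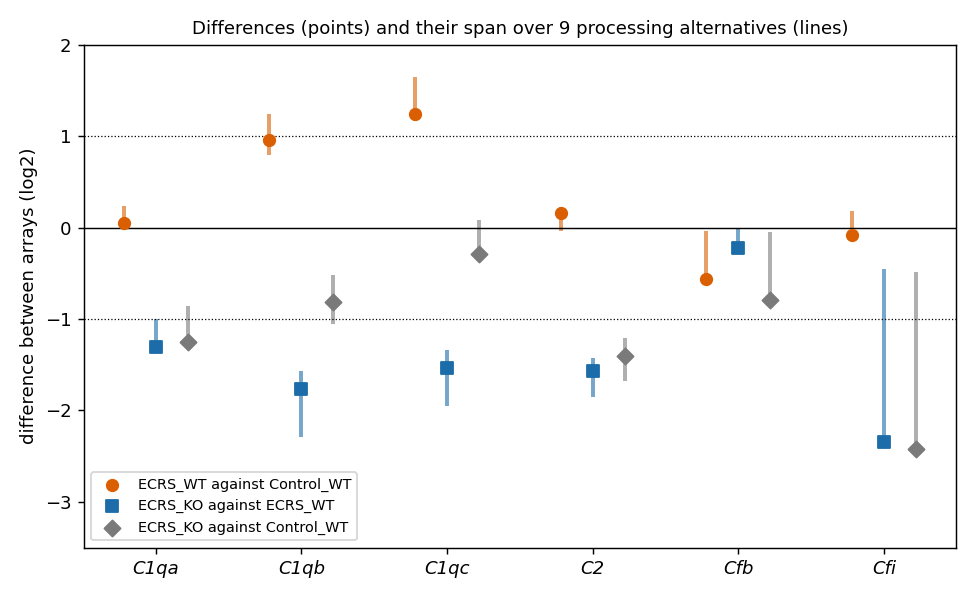
Log2 differences of the 6 complement genes in the 3 comparisons (points) and their span over 9 alternative ways of processing (vertical lines); dotted lines mark 2-fold. The lines for ECRS_KO against ECRS_WT stay at or below -1 for C1qa, C1qb, C1qc and C2, whereas that of Cfi reaches -0.45.

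The authors' own normalized values, on a linear scale, were 614, 617 and 265 for C1qa, 1021, 1936 and 562 for C1qb, and 606, 1388 and 481 for C1qc, in the pools labelled Control_WT, ECRS_WT and ECRS_KO. For C2 they were 3425, 3753 and 1224, for Cfi 289, 265 and 97.4, and for Cfb 108, 91.9 and 87.2. With these values the same 5 genes were at least 2-fold lower in the pool labelled ECRS_KO than in the pool labelled ECRS_WT.

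C2 and Cfb are neighbours on chromosome 17, in the class III part of the major histocompatibility complex, and both encode proteases of the enzymes that split C3. Their differences between the pools labelled ECRS_KO and ECRS_WT were -1.56 for C2 and -0.22 for Cfb. The other 8 detected genes within 5 places of C2 in the RefSeq gene order lay within 2-fold in this comparison, from -0.66 for Slc44a4 to 0.19 for Skiv2l. Beside the C1q chain genes on chromosome 4, Kdm1a differed by 0.30 and Epha8 by 0.03, whereas Wnt4, a secreted signalling protein, was 2.06-fold lower (-1.05). Wnt4 fell short of 2-fold with limma's own background estimate (-0.34), scaling to a common median (-0.81) and an offset of 50 (-0.92). It also fell short when scaled on probes detected on every array (-0.99) and with the authors' values (-0.86). The other 4 of 9 alternatives, under which it passed, kept the background correction and the scaling. These neighbours were looked up after the values of the complement genes had been seen.

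Other complement genes were taken from a list of 52 symbols, of which 43 had a probe and 17 were detected on at least 1 array. By the same rule, none was higher and 2 were lower in the pool labelled ECRS_WT than in the pool labelled Control_WT, out of 17 measured, with a median difference of -0.20. On the pool labelled ECRS_KO, 2 were higher and 1 lower than in the pool labelled ECRS_WT, out of 16 measured, with a median of -0.37. Against Control_WT, none of 17 was higher and 3 were lower there, with a median of -0.39. The percentages over all genes are those given above.

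In the lectin pathway, Mbl2, which encodes a mannose-binding lectin, had signals of 41.7 in the pool labelled Control_WT, 22.1 in the pool labelled ECRS_WT, where it was not detected, and 212 in the pool labelled ECRS_KO. It was 2.23-fold lower in the pool labelled ECRS_WT than in the pool labelled Control_WT. It was 4.03-fold higher in the pool labelled ECRS_KO than in the pool labelled ECRS_WT. Both values rest on its undetected reading. With limma's own background estimate these differences were -0.08 and 0.20 on the log2 scale, and with the authors' values -0.45 and 0.86. The first also fell short of 2-fold with scaling to a common median (-0.83) and an offset of 50 (-0.74). Fcna, the gene of ficolin A, had signals of 88.7, 57.9 and 32.0, the last not detected. It was 2.13-fold lower in the pool labelled ECRS_WT than in the pool labelled Control_WT. Its undetected level in the pool labelled ECRS_KO was 1.86-fold lower than in the pool labelled ECRS_WT. Against Control_WT that level was 3.96-fold lower (-1.99), the largest difference among the listed genes in that comparison. With limma's own background estimate the first of these was -0.14 on the log2 scale and the last -0.20. With the authors' values the first was -0.62 and the last -0.94. The first also fell short of 2-fold with scaling to a common median (-0.79) and an offset of 50 (-0.84). Masp1, a protease that binds these lectins, had signals of 581, 1109 and 854 and differed by 0.43 and -0.82 in the same 2 comparisons. A second probe of Masp1 was not detected in any pool. Fcnb, the gene of ficolin B, differed by -0.55 and 0.03.

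Of the soluble regulators, Clu, the gene of clusterin, had signals of 22221, 20315 and 11766. It was 2.04-fold lower in the pool labelled ECRS_KO than in the pool labelled ECRS_WT and 2.47-fold lower than in the pool labelled Control_WT. Serping1, the gene of the C1 inhibitor, had signals of 5198, 6730 and 4544. It was 1.88-fold lower in the pool labelled ECRS_KO than in the pool labelled ECRS_WT (-0.91), and it passed 2-fold (-1.01) when scaled on probes detected on every array. Cpn1, the catalytic subunit of carboxypeptidase N, which inactivates the anaphylatoxins, had signals of 37.2, 30.2 and 151. It was 2.49-fold higher in the pool labelled ECRS_KO than in the pool labelled ECRS_WT, where it was not detected. With limma's own background estimate that difference was 0.11, with the authors' values 0.58 and with an offset of 50 0.91. Cpn2, the other subunit, had signals of 31.8, 27.6 and 21.5 and was detected in the pool labelled Control_WT alone. Its undetected level in the pool labelled ECRS_KO was 2.04-fold lower than in the pool labelled Control_WT (-1.03). That difference passed 2-fold under only 3 of 8 alternatives. It fell short with scaling to a common median (-0.75), the mean over its probes (-0.79) and an offset of 50 (-0.62). With the authors' values it was -0.39, and with limma's own background estimate -0.06. Vtn, the gene of vitronectin, had signals of 24.0, 31.8 and 19.0, the last not detected, and stayed within 2-fold in every comparison. Against Control_WT it differed by -0.76 in the pool labelled ECRS_KO. That difference passed 2-fold (-1.02) when scaled on probes detected on every array.

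The 4 detected regulators on the cell surface lay within 2-fold in every comparison. Cd59a, which blocks the membrane attack complex, had signals of 2062, 3552 and 5485, and differed by 0.41 between the pools labelled ECRS_WT and Control_WT and by 0.28 between those labelled ECRS_KO and ECRS_WT. Its relative Cd59b differed by 0.65 and -0.15. Cd55, the gene of decay-accelerating factor, differed by 0.23 and -0.20. Susd4, a membrane inhibitor of complement, had signals of 258, 333 and 814 and differed by -0.20 and 0.80. Against Control_WT, Cd59b (1.03) and Susd4 (1.04) passed 2-fold in the pool labelled ECRS_KO with scaling to a common median.

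Cfp, the gene of properdin, which stabilises the alternative pathway enzyme, had signals of 674, 818 and 790 and differed by -0.18 and -0.51 in these 2 comparisons. C8g, a chain of the terminal component C8, had signals of 158, 190 and 200 and differed by -0.31 and -0.44. C1qbp, a mitochondrial protein that also binds C1q, was 1.94-fold higher in the pool labelled ECRS_WT than in the pool labelled Control_WT and 1.23-fold lower in the pool labelled ECRS_KO than in the pool labelled ECRS_WT. Cd93, a receptor first described as a C1q receptor, differed by 0.38 and -0.68. A second probe of Cd93 had signals of 81.7, 129 and 149 and stood at log2 levels of 7.29, 7.24 and 6.91.

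The remaining 26 genes of the list were not detected on any array. They included the receptor genes C3ar1, C5ar1, C5ar2, Itgam, Itgax, Itgb2 and Vsig4, the lectin pathway genes Masp2, Mbl1, Colec10 and Colec11, and 6 of 7 terminal pathway genes, all but C8g. C1s1, the gene of the C1s protease, had signals of 10.8, 109 and 127 and Cr1l, the mouse regulator Crry, had signals of 5.65, 158 and 232, yet both were listed as not detected. Bright probes of this kind were part of the deposited table, with 153, 178 and 222 probes of a signal over 1000 not detected in the pools labelled Control_WT, ECRS_WT and ECRS_KO, and they were left out of the counts.

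**Figure D4:**
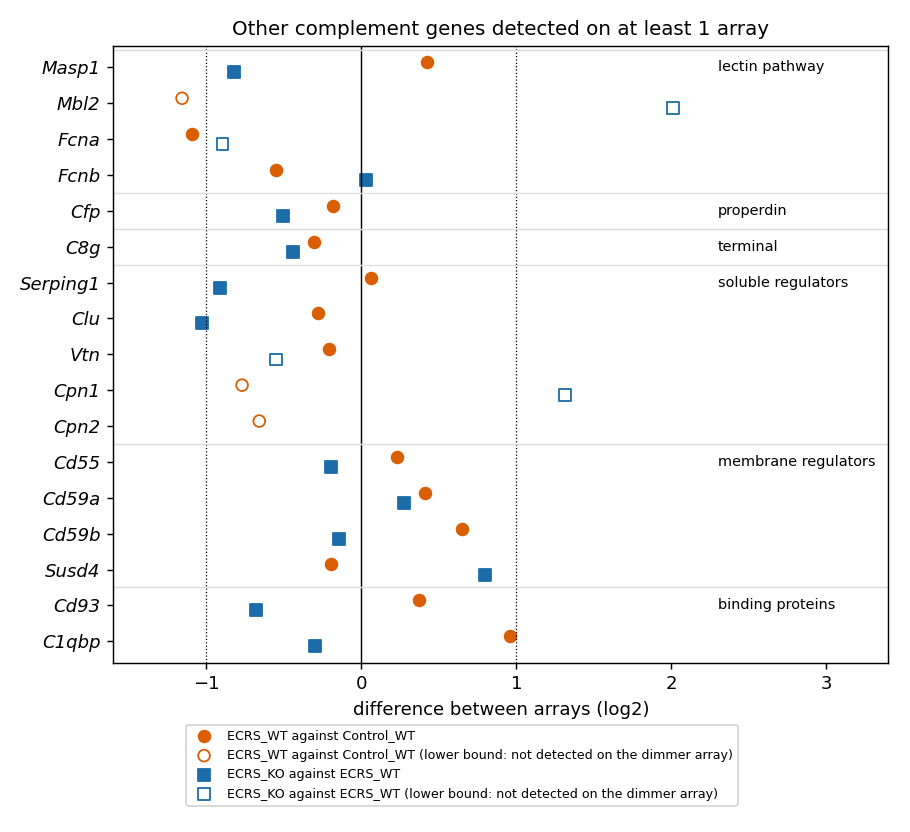
Log2 differences of the 17 other complement genes detected on at least 1 array, by role, for ECRS_WT against Control_WT (circles) and ECRS_KO against ECRS_WT (squares). Open symbols, named lower bounds in the key, are genes not detected in the dimmer pool, placed at the difference from their undetected level. Dotted lines mark 2-fold. Mbl2 and Cpn1 lie to the right of the right dotted line as open symbols. The membrane regulators all lie between the dotted lines.

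Markers of macrophages and dendritic cells, which make C1q, are given beside its chains. Of 15 macrophage and dendritic cell markers 12 had a probe, 6 were detected on at least 1 array, and Cd163, Siglec1, Cd209a, Clec10a, Aif1 and Lyz2 were not detected on any. Lyz2, the gene of lysozyme M, had signals of 1037, 4835 and 2515 in the pools labelled Control_WT, ECRS_WT and ECRS_KO and was listed as not detected there. The summed linear level of the 6 detected markers was 3109, 3900 and 1759 in the same order. On the pool labelled ECRS_KO all 6 were below the pool labelled ECRS_WT, from -0.53 to -1.51 on the log2 scale. The median was -0.87, and 2 of the 6 were lower by 2-fold or more, beside 2.35% of all measured genes. Ms4a7, a membrane protein of macrophages, had signals of 130, 611 and 287, and was 2.85-fold higher in the pool labelled ECRS_WT than in the pool labelled Control_WT and 2.86-fold lower in the pool labelled ECRS_KO than in the pool labelled ECRS_WT. Cd14, a co-receptor for lipopolysaccharide, had signals of 1211, 1621 and 925 and was 2.38-fold lower in the latter comparison. Ms4a7 did not reach 2-fold in either comparison with limma's own background estimate (0.81 and -0.81) or with the mean over its probes (0.31 and -0.55). The part of macrophage content in the C1q values was not tested.

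**Figure D5:**
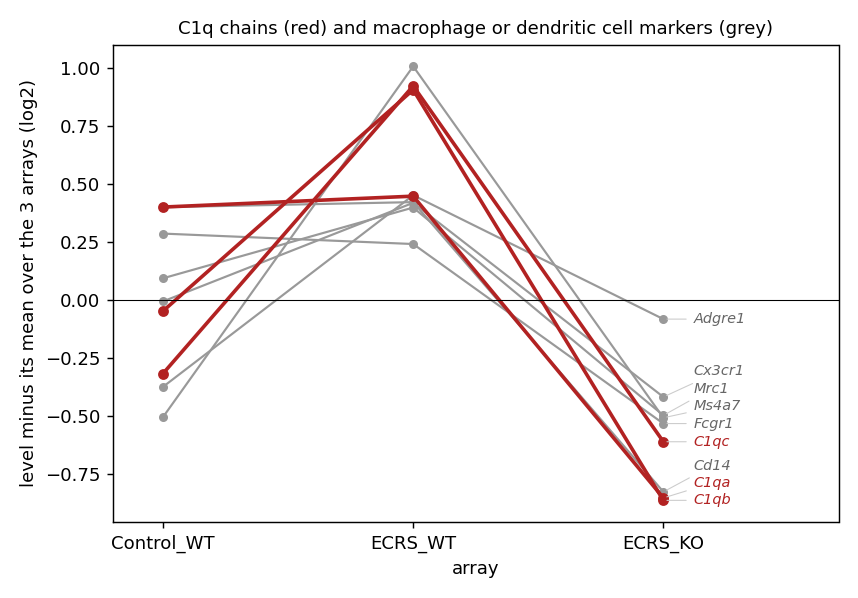
Log2 levels of the 3 C1q chains (red) and of the 6 detected macrophage or dendritic cell markers (grey) on the 3 arrays, each minus its own mean over the arrays. Every line falls from ECRS_WT to ECRS_KO, and between Control_WT and ECRS_WT the steps range from -0.05 (Fcgr1) to 1.51 (Ms4a7).

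Marker genes of other cell types also differed between the pools labelled ECRS_KO and ECRS_WT. Over all genes measured in that comparison, 2.35% were lower and 4.66% higher. The 3 detected T cell genes, which encode chains of the CD3 complex, all lay below by 2-fold or more, with Cd3d at -2.14, Cd3e at -2.09 and Cd3g at -1.93 on the log2 scale. Their summed levels were 1310, 1540 and 336 in the pools labelled Control_WT, ECRS_WT and ECRS_KO, and none of the 3 reached 2-fold with limma's own background estimate (-0.79, -0.65 and -0.77). Of 10 olfactory neuron genes 9 were higher, among them Rtp2 (2.41) and Rtp1 (2.29), which carry odorant receptors to the membrane, and Stoml3 (1.85). The summed levels of the list were 30840, 29100 and 66680. Omp, the only gene of this list within 2-fold, differed by 0.15, with signals of 10090, 12380 and 15650. Of 7 cartilage and bone genes 4 were higher, among them the matrix genes Col2a1 (1.98), Comp (1.26) and Acan (1.21), with summed levels of 6592, 6637 and 14950.

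The same 2.35% lower and 4.66% higher over all measured genes stand beside the next counts. Of 5 detected epithelial genes 1 was lower, the tight junction gene Cldn4 (-1.15). Cldn4 fell short of 2-fold with scaling to a common median (-0.98). All 5 epithelial genes lay below 0, with a median of -0.66. Of 5 interferon response genes 1 was lower, the chemokine gene Cxcl9 (-2.07), which differed by -0.40 with limma's own background estimate. Of 6 nasal gland genes 2 were higher and 1 lower. Bpifb9b was not detected in the pool labelled ECRS_WT and was at least 19.7-fold higher in the pool labelled ECRS_KO, Obp1a, an odorant-binding protein gene, differed by 1.12, and Bpifb1 by -1.11. By the same processing, Bpifb9b was also at least 45.4-fold lower in the pool labelled ECRS_WT than in the pool labelled Control_WT. The 8 alternatives gave log2 differences from -6.09 to -2.75. Of 4 hepatocyte genes 1 was lower, the apolipoprotein gene Apoa2 (2.13-fold), which was not detected in the pool labelled ECRS_KO. The albumin gene Alb was not detected on any array. Obp1a and Apoa2 differed by 0.09 and -0.06 with limma's own background estimate. None of 6 ciliated cell (median -0.33), 9 neutrophil (0.16), 8 fibroblast (-0.30) or 2 adipocyte genes (-0.06) reached 2-fold in this comparison. Against Control_WT, the ciliated cell gene Tppp3 (-1.42) and the hepatocyte gene Ahsg (2.60-fold) were lower in the pool labelled ECRS_KO, where Ahsg was not detected. The difference of Ahsg passed 2-fold under only 4 of 8 alternatives. It was -0.095 with limma's own background estimate and -0.54 with the authors' values. Of 9 neutrophil genes 4 were lower in the pool labelled ECRS_WT than in the pool labelled Control_WT, beside 1.4% of all measured genes. They included the granule genes Camp (-1.33) and Ctsg (-1.31) and the calprotectin subunit gene S100a9 (-1.39). In contrast, S100a8 differed by -0.48 and Ltf by -0.02, and Ngp lay above (0.61). The part of these cells in the complement values was not tested.

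The genes whose pattern lay nearest the mean of the C1q chains were found among 7053 genes detected on all 3 arrays, by the Euclidean distance of their log2 levels, each centred on its mean over the 3 arrays. The 5 nearest were Cox8b (distance 0.11), Ccl21b (0.15), Kcnj16 (0.16), Phlda3 (0.19) and Hcls1 (0.19). C1qb itself ranked 4, C1qc 52 and C1qa 121 by this distance. Likeness over 3 centred levels rests on only 2 free values per gene.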

How the data were processed

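Pools of 5 mice per group were read on 3 Illumina bead arrays. The deposited table holds, per the file headers, the signal intensity and the detection p-value of each of 35226 probes. The authors' normalized intensity of the series table is on a linear scale with an unstated method, and in the pool labelled Control_WT it equals the deposited signal plus a constant. BeadStudio is named by the submitters' processing notes, and the genome build was not given in the sources used here.

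Background was corrected with limma 3.58.1 in R 4.3.3 by normexp with an offset of 16, from negative control SDs of 9.23, 13.7 and 16.9 read from median signals over 100 bins of detection p. Limma's own background estimate, from every probe's detection p, gave SDs of 259.6, 356 and 361 and is an alternative. Arrays were quantile normalized on the linear scale, and log2 values were taken afterwards. Where several probes named a gene, that with the highest mean signal was used. A gene was measured when detected on either array. A probe not detected on the dimmer side was given the higher of its own level and the lowest detected level of that array. Where the lowest detected level was used, as for Bpifb9b, the fold is a lower bound under this processing and not over the alternatives. Where its own level was used, the fold is a plain difference from an undetected reading. With 1 array per group there is no test. The members and lists were chosen with earlier results of these data known. Named were Scgb1a1, the members, listed complement genes detected on an array, of each other list up to 3 genes with the largest difference of 2-fold or more in any comparison, and the 5 nearest patterns; other genes named were chosen after their values were seen. There were 10 alternatives. The calling rule was tested on simulated data, which cannot stand in for variation between pools, and the outcome is not used here.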

Additional observations from a re-analysis of the deposited data

How the results depend on the processing

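No paired analysis was possible because each group is 1 pooled array. With 1 array per group, no alternative could leave out a replicate. The 10 alternatives kept 92 of 120 counts within 1.5 times. For ECRS_KO against ECRS_WT, the count of 5 lower complement members stayed within that bound under all 10. Some of these alternatives could not have moved it, since each member had a single probe, detected on every array. They were the detection p under 0.05, no detection filter, probes detected on all 3 arrays and the mean over probes. The higher count for ECRS_WT against Control_WT was 2 in place of 1 with limma's own background estimate, with scaling to a common median and at 1.5-fold, and the lower count for ECRS_KO against Control_WT was 5 in place of 3 at 1.5-fold.

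Counts of the 43 other complement genes moved more. For ECRS_WT against Control_WT, the higher count of 0 became 1 with limma's own background estimate and with median scaling, and 2 with no detection filter and at 1.5-fold. The lower count of 2 became 0 with limma's own background estimate, median scaling, the authors' values, probes detected on all 3 arrays and an offset of 50, and 4 at 1.5-fold. For ECRS_KO against ECRS_WT, the higher count of 2 became 0 with limma's own background estimate, the authors' values and probes detected on all 3 arrays, and 1 with an offset of 50. The lower count of 1 became 2 when scaled on probes detected on every array and 5 at 1.5-fold. For ECRS_KO against Control_WT, the higher count of 0 became 4 with median scaling and at 1.5-fold, and 2 with no detection filter. The lower count of 3 became 1 with limma's own background estimate, the authors' values and probes detected on all 3 arrays, 5 when scaled on probes detected on every array and 7 at 1.5-fold. The cause was not tested.

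Over all genes, the counts higher and lower were 330 and 123 for ECRS_WT against Control_WT, 416 and 210 for ECRS_KO against ECRS_WT, and 628 and 514 for ECRS_KO against Control_WT. In the same order they were 108 and 41, 144 and 81, and 213 and 148 with limma's own background estimate, and 128 and 42, 212 and 95, and 295 and 221 with the authors' values. With an offset of 50 they were 202 and 42, 282 and 121, and 432 and 250, and with probes detected on all 3 arrays 214 and 79, 249 and 158, and 384 and 387. At 1.5-fold they were 861 and 944, 843 and 783, and 1361 and 1781. Median scaling gave 513 and 41, 557 and 126, and 1278 and 129, with medians of genes detected on both arrays of 0.10, 0.13 and 0.24 in place of -0.09, -0.05 and -0.13. For ECRS_KO against Control_WT, 565 were higher and 714 lower when scaled on probes detected on every array. Among the complement genes, Scgb1a1, Wnt4 and the named genes of the other lists, no difference of 2-fold or more changed sign under an alternative that measured it. Signals near background, as for Cfb, limit what these arrays can show.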
